A study of Homo sapiens with 6 samples.

Results

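The genes described here are 10 inflammatory chemokines and interleukins: the CXC chemokines CXCL1, CXCL2, CXCL3, CXCL5 and CXCL8, the CC chemokine CCL20, and the cytokines IL6, IL1A, IL1B and LIF. They were taken by name from the 60658 Ensembl genes listed in each library, and all 10 were found under 1 identifier each. Messenger RNA was sequenced from 6 human prostate carcinoma lines, with 1 library per line. CTXR is the cabazitaxel-resistant derivative of DTXR, the docetaxel-resistant derivative of parental DU145. CabR is in the same way the cabazitaxel-resistant derivative of TaxR, the docetaxel-resistant derivative of parental C4-2B. Per the labels CTXR and CabR were maintained under 5 nM cabazitaxel and DTXR and TaxR under 5 nM docetaxel, with no treatment before harvest. C4-2B descends from LNCaP, while DU145 grows without androgen. Docetaxel and cabazitaxel are taxanes, which stabilise microtubules. Each resistant line is a single derivative of 1 parental line, and the label of TaxR carries the word old without explanation. The design asks how taxane-resistant cells differ from their parental cells.

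CXCL1, CXCL2, CXCL3, CXCL5 and CXCL8 are small secreted proteins that attract neutrophils through the receptors CXCR1 and CXCR2. CCL20 attracts lymphocytes and dendritic cells that carry CCR6. IL1A and IL1B act through IL1R1 and switch on NF-kB, the transcription factor that in turn drives most of these chemokine genes and IL6. IL6 and LIF signal through the shared receptor chain IL6ST to STAT3. In epithelial tumours these genes are known as an inflammatory secretory programme, kept in check by inhibitors of NF-kB and by proteins that degrade their short-lived mRNAs.

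CXCL1, CXCL2, CXCL3, CXCL5 and CXCL8 lie in 1 cluster on chromosome 4, with CXCL6 among them. The 250 bases before the RefSeq start site of these 6 genes (GRCh38.p14) are shown because they hold the NF-kB-like sequence that the neighbours share. Capitals mark matches to GGNNNTTCC on either strand.
CXCL1: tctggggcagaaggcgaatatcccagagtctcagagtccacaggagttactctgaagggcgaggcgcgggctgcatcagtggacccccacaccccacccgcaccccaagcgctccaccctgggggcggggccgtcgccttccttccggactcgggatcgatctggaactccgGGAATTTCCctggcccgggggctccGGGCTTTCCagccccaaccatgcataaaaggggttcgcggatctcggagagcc
CXCL2: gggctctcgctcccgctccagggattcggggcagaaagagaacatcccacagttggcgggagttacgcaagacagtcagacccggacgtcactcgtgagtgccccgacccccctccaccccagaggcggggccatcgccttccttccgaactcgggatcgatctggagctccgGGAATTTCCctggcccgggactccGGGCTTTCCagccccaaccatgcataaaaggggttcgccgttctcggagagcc
CXCL3: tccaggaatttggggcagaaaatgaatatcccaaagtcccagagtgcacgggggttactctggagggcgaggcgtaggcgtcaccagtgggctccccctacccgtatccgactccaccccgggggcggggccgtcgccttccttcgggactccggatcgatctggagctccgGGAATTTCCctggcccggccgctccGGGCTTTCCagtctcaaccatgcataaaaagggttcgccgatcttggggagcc
CXCL5: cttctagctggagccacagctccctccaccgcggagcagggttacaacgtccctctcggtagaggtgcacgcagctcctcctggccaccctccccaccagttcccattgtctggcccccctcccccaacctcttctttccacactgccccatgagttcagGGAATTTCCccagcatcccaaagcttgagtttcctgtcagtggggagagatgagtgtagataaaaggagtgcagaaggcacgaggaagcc
CXCL6: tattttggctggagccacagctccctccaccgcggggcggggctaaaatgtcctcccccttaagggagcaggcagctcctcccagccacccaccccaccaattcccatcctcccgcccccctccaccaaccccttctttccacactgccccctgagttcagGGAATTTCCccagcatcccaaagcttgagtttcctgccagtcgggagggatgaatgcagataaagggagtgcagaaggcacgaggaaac
CXCL8: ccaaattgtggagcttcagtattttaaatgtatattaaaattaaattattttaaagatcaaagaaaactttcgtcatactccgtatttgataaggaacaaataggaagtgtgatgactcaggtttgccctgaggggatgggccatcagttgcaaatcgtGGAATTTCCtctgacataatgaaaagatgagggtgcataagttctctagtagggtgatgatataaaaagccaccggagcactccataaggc

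These stretches lie at chr4:73869143-73869392 on the plus strand for CXCL1, chr4:74099196-74099445 on the minus strand for CXCL2 and chr4:74038690-74038939 on the minus strand for CXCL3. CXCL5 was read at chr4:73998678-73998927 on the minus strand, CXCL6 at chr4:73836428-73836677 on the plus strand and CXCL8 at chr4:73740319-73740568 on the plus strand. All 6 hold the same run GGAATTTCC, which begins 78 bases before the start site in CXCL1, 77 in CXCL2, 78 in CXCL3, 90 in CXCL5, 89 in CXCL6 and 91 in CXCL8. CXCL1, CXCL2 and CXCL3 hold a further match, GGGCTTTCC, 53 bases before the start. CCL20 and IL6 have 1 match each (GGAAAACCC and GGATTTTCC), and neither listed start site of IL1A nor that of IL1B has one. Of 34788 distinct RefSeq promoters of this length, 17.1% hold GGNNNTTCC and 0.417% hold GGAATTTCC, a run picked after these sequences were read. The AP-1 motif TGANTCA was found in CXCL8 and IL1A (6.59% of promoters), and the C/EBP motif TTNNGNAA in CXCL2, IL6, IL1A and IL1B (33.2%). The TATA motif TATAAA was found in CXCL8, CCL20 and IL1A (10.8%). A looser NF-kB consensus that overlaps the first occurs in 54.4% of promoters. RefSeq promoters were at hand for 9 of the 10 genes. Over these 250 bases CXCL5 was 85.3% identical to CXCL6 but only 50.7% to CXCL1, while CXCL1 and CXCL3 were 81.4% identical. The coding sequences of CXCL1, CXCL2 and CXCL3 were 90.7% to 94.4% identical to one another and those of CXCL5 and CXCL6 87.5%, so how reads were divided within these sets is uncertain.

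Values are FPKM as deposited, fragments per kilobase of transcript scaled to library depth. In the 6 libraries 13418 to 14270 genes reached 1 FPKM, and 17436 did so in at least 1. The steps between the lowest values, where a gene holds a few fragments, put the depth at 1.35 times that of DU145 in CTXR, the deepest library, and at 0.886 times in C4-2B, the shallowest. Fragment numbers below are separate estimates from the low values of single-transcript genes, with an assumed fragment length of 200 bases. None of 77 ribosomal protein genes was listed at 0 in any library. Mitochondrial genes held 17.9% of the summed FPKM in C4-2B and 26.5% to 40.7% in the other lines. All 8 C4-2B markers, KLK3 among them, reached 1 FPKM in CabR, TaxR and C4-2B, with sums of 2345, 4286 and 5152 FPKM, against sums of 4.41 to 5.12 FPKM in the DU145 lineage. PTPRC, the leukocyte marker CD45, was listed at 0 in all 6 libraries, and of 8 leukocyte markers only CD68 reached 1 FPKM, at 25.8 in CTXR, 82.4 in DTXR, 9.07 in DU145, 0.862 in CabR, 2.44 in TaxR and 6.81 in C4-2B. CD68 was called higher in CTXR and DTXR against DU145, and its part in the results was not tested. Of 7 fibroblast and endothelial markers 1 or 2 reached 1 FPKM in each library, and their sums ran from 3.16 FPKM in DTXR to 15.2 in C4-2B. Among these the collagen gene COL3A1 was called higher in CTXR (6.85 FPKM) and lower in DTXR (0.0296 FPKM), against 1.31 FPKM in DU145, and its part in the results was not tested either. Each line has 1 library, so differences between lines were not checked against replicates, and fewer expressing cells cannot be told apart from less RNA per cell. Lines were compared by the ratio of (FPKM + 1) on the log2 scale, and a gene is called higher or lower from a size of 1, the size rule. Adding 1 makes changes of weakly expressed genes look smaller than they are.

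The mRNA of the 6 chemokines among the 10 genes was read almost entirely in the DU145 lineage, apart from low CXCL5 values. CXCL1, CXCL3 and CCL20 were listed at 0 in CabR, TaxR and C4-2B. CXCL2 and CXCL8 were listed at 0 in CabR and C4-2B and stood at 0.0657 and 0.0416 FPKM in TaxR, about 1 fragment each. In CTXR, DTXR and DU145, by contrast, each of these 5 genes had between 0.770 and 43.1 FPKM. LIF, a cytokine of the IL6 family, had 59.96 FPKM in CTXR, 37.4 in DTXR and 22.2 in DU145, against 1.33 in CabR, 1.33 in TaxR and 1.06 in C4-2B. For these 6 genes the lowest DU145-lineage library lay above the highest C4-2B-lineage library. CXCL5 differed from them, because DU145 itself, at 0.0864 FPKM, lay below TaxR (0.280) and C4-2B (0.103).

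The difference between lineages was tested with limma on log2(FPKM + 1) over all 6 libraries, with stage of selection and lineage as terms and Benjamini-Hochberg adjustment over 17436 genes. The test passed an adjusted p of 0.05 for 39.0% of all genes (18.7% higher in the DU145 lineage), so a difference of this kind is common in these cells. The 7 genes that reached 1 FPKM all passed, higher in the DU145 lineage. Of these all but LIF passed the 1 FPKM filter through that lineage alone, so their direction was set by the filter. For LIF the log2 difference was 4.08 (limma adjusted p = 0.0001744), for CXCL2 the adjusted p was 0.0002189 and for CXCL3 0.0005481. It was 0.008616 for CXCL8, 0.01134 for CXCL1, 0.0174 for CCL20 and 0.03194 for CXCL5. The 3 libraries of a lineage share 1 origin, so these p-values measure the spread among related lines. CXCL2, CXCL3 and LIF stayed past the limma threshold in all 12 settings tried, while the highest adjusted p was 0.246 for CXCL5, 0.101 for CXCL8, 0.0881 for CCL20 and 0.0722 for CXCL1.

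**Figure D1:**
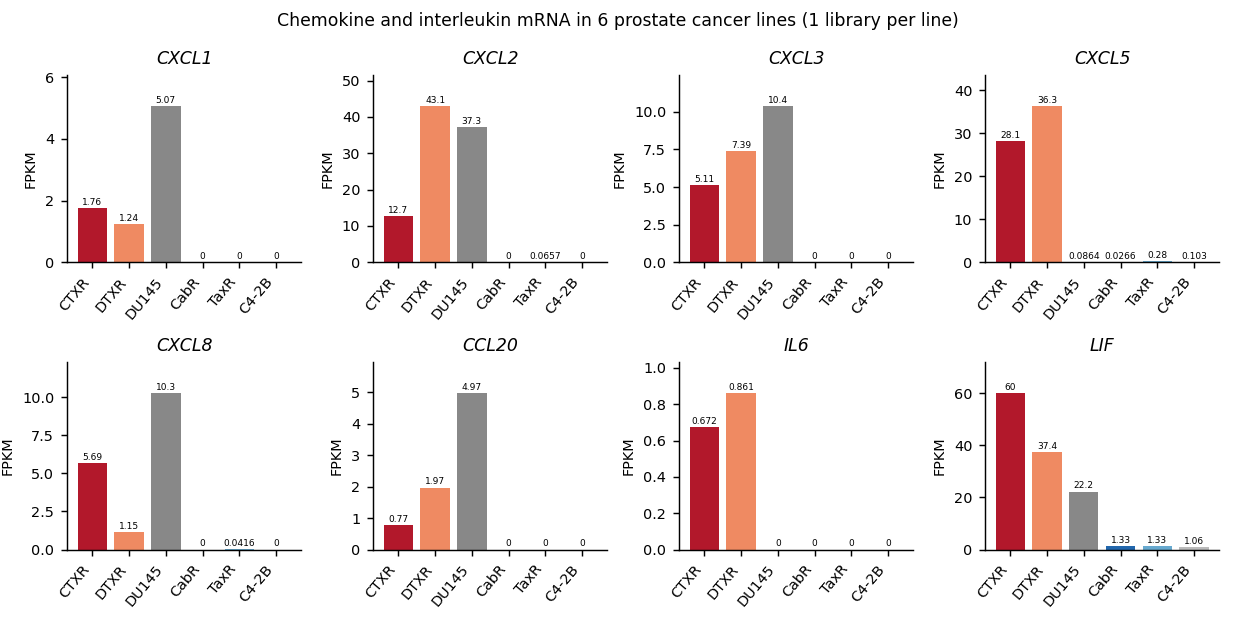
FPKM of 8 of the 10 genes in each line (bars, 1 library per line, each panel with its own linear axis from 0). IL1A and IL1B are left out because they were listed at 0 in all 6 libraries. CXCL5 had 28.1 FPKM in CTXR and 36.3 in DTXR against 0.0864 in DU145, and the 3 C4-2B-lineage lines stayed under 1 FPKM for every gene but LIF.

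Within the DU145 lineage the genes went different ways. Of the 10 genes 7 reached 1 FPKM. In CTXR against DU145 2 of these were higher (CXCL5 and LIF) and 3 lower (CXCL1, CXCL2 and CCL20), and in DTXR against DU145 1 was higher (CXCL5) and 3 lower (CXCL1, CXCL8 and CCL20). The same size rule called 12.9% of all measured genes in CTXR (7.45% higher, 5.47% lower) and 10.5% in DTXR (5.37% higher, 5.10% lower). The median log2 ratio of the 7 genes was -0.90 in CTXR and -0.44 in DTXR, against 0 over all measured genes in both. Both ratios use the same DU145 library.

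CXCL5 was the 1 gene of the 10 called higher than DU145 in both resistant lines. It had 28.1 FPKM in CTXR and 36.3 in DTXR, about 1504 and 1582 fragments, against 0.0864 FPKM in DU145, about 3 fragments. The log2 ratios to DU145 were 4.74 in CTXR and 5.10 in DTXR, and CTXR stood at -0.36 against DTXR. Both resistant lines thus lay far above the parent and close to each other. In the C4-2B lineage CXCL5 had 0.0266 FPKM in CabR, 0.280 in TaxR and 0.103 in C4-2B, about 1, 11 and 4 fragments. A limma fit that took the sublines of each lineage as replicates gave a log2 difference of 4.92 between the resistant and parental DU145 lines, unadjusted p = 0.0001161 and adjusted p = 0.141, and the change differed from that in the C4-2B lineage by 4.87 (limma adjusted p = 0.342). Neither contrast had any gene past an adjusted p of 0.05 (1559 and 1660 genes at an unadjusted p under 0.05), so neither passed for CXCL5. Without the filter on low values CXCL5 passed the first of these limma contrasts (adjusted p = 0.0492, one of 384 genes), and over the 10 settings tried its adjusted p ran from 0.0492 to 0.642. The parental level rests on about 3 fragments. CXCL5 reached 1 FPKM in CTXR and DTXR alone, so the filter set the direction of its calls and of both filtered contrasts.

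CXCL8, the best known neutrophil attractant of the group, was lowest in the docetaxel-resistant line. It had 5.69 FPKM in CTXR, 1.15 in DTXR and 10.3 in DU145, about 196, 32 and 259 fragments. The log2 ratio to DU145 was -0.75 in CTXR, short of the size rule, and -2.39 in DTXR. CTXR was higher than DTXR by 1.64. CXCL6, which is not among the 10 genes, was likewise lowest in DTXR, with 2.37 FPKM in CTXR, 0.331 in DTXR and 1.96 in DU145. CXCL6 is the closest relative of CXCL5 in sequence, but its log2 ratios to DU145, 0.19 in CTXR and -1.15 in DTXR, were far below those of CXCL5.

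CXCL1, CXCL2 and CXCL3 encode the closely related GRO chemokines. CXCL2 was the most abundant of the CXC genes in DTXR and DU145, with 12.7 FPKM in CTXR, 43.1 in DTXR and 37.3 in DU145. It stood at 0.20 in DTXR and was lower in CTXR, by a log2 ratio of -1.48 to DU145 and -1.68 to DTXR. CXCL1 had 1.76 FPKM in CTXR, 1.24 in DTXR and 5.07 in DU145, about 36, 21 and 76 fragments, and was lower in both resistant lines (-1.14 and -1.44). CXCL3 had 5.11 FPKM in CTXR, 7.39 in DTXR and 10.4 in DU145, and its log2 ratios of -0.90 and -0.44 did not pass the size rule. With a pseudocount of 0.1 or 0.01 in place of 1 its CTXR ratio did, at -1.01 and -1.02. With mitochondrial genes left out and totals made equal it stood at -1.07. CXCL1 was called lower in DTXR and CXCL2 was not, although their coding sequences are 93.5% identical, with the caution on shared reads given above.

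CCL20, the CCR6 ligand, had 0.770 FPKM in CTXR, 1.97 in DTXR and 4.97 in DU145, about 11, 23 and 53 fragments. Its log2 ratio to DU145 was -1.75 in CTXR and -1.01 in DTXR. The DTXR ratio was just past the rule and did not reach it, at -0.99, with median-ratio size factors. In the limma fit within the DU145 lineage CCL20 had an adjusted p of 0.478. Without DTXR that fit sets 1 resistant library against 1 parental library, and the log2 difference was -1.75. LIF was the most abundant member of the 10 in CTXR, with about 5177 fragments, against 2625 in DTXR and 1407 in DU145. It was higher in CTXR (log2 ratio 1.39) and stood at 0.72 in DTXR. IL6 showed 0.672 FPKM in CTXR and 0.861 in DTXR, about 20 and 21 fragments, and a listed value of 0 in DU145. These values lie under the filter, so IL6 was not called. With mitochondrial genes left out and totals made equal, which raises all values, it passed the filter and was called higher in both resistant DU145 lines. It passed through CTXR and DTXR alone, so the filter set the direction of these calls. IL1A and IL1B were listed at 0 in all 6 libraries.

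The 5 CXC chemokine genes were also taken as 1 pool. Their summed FPKM was 53.4 in CTXR, 89.2 in DTXR and 63.1 in DU145. CXCL5 made up 52.6% of that sum in CTXR and 40.7% in DTXR, against 0.137% in DU145. The share of CXCL2 was 23.9% in CTXR, 48.3% in DTXR and 59.1% in DU145. CXCL8 held 10.7% in CTXR, 1.29% in DTXR and 16.3% in DU145. CXCL3 held 9.58% in CTXR, 8.29% in DTXR and 16.5% in DU145, and CXCL1 held 3.30% in CTXR, 1.39% in DTXR and 8.04% in DU145. These are shares of mRNA level per length and not of protein.

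**Figure D2:**
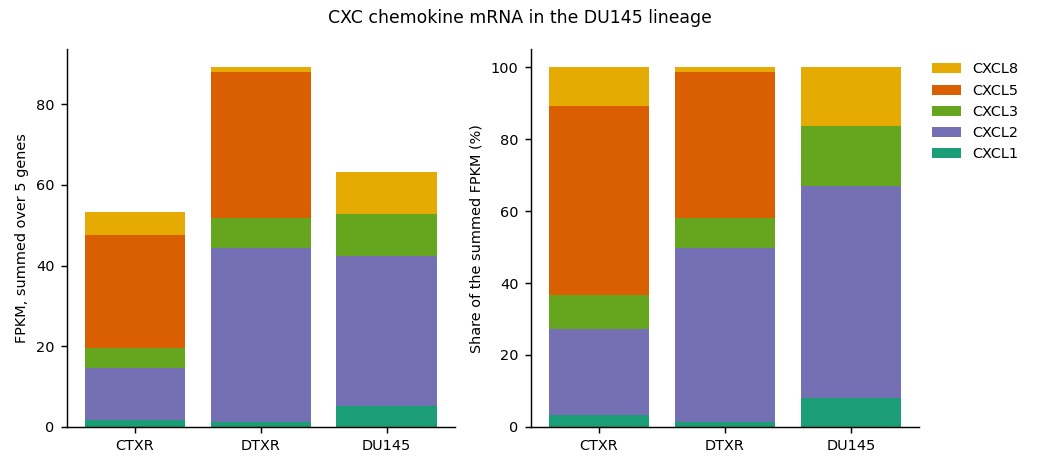
FPKM of the 5 CXC chemokine genes stacked in CTXR, DTXR and DU145 (left, linear axis from 0) and the same as percent of their sum (right). CXCL5 holds 52.6% of the sum in CTXR and 40.7% in DTXR and is not visible in DU145, where it holds 0.137%.

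The cabazitaxel-resistant step in the DU145 lineage set CTXR against DTXR. CXCL8 was higher and CXCL2 lower in CTXR, and the other 5 genes that reached 1 FPKM lay between -0.75 for CCL20 and 0.67 for LIF. The size rule called 12.5% of all measured genes in this comparison (7.29% higher, 5.25% lower). The median of the 7 genes was -0.36, against 0 for all genes. With a pseudocount of 0.1 CCL20 was also lower, at -1.25.

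In the C4-2B lineage none of the 10 genes passed the size rule in CabR against C4-2B, TaxR against C4-2B or CabR against TaxR, although the rule called genes in each. It called 8.87% of measured genes in CabR against C4-2B (2.67% higher, 6.20% lower), 8.16% in TaxR against C4-2B (2.52% higher, 5.64% lower) and 3.59% in CabR against TaxR (1.75% higher, 1.84% lower). For CXCL1, CXCL2, CXCL3, CXCL5, CXCL8 and CCL20 it could not be passed, since no library reached 1 FPKM. LIF was the only member above that level, with log2 ratios of 0.18 in CabR and 0.17 in TaxR and 61 to 96 fragments per library. In TaxR some genes of the DU145 lineage were read at low level. Of 10 such genes 9 reached 1 FPKM in TaxR, against 2 in CabR and 3 in C4-2B, and their excess over C4-2B came to a median of 1.90% of the DU145 level (range -0.0496% to 15.1%). The same percentage of DU145 would put CXCL2 at 0.709 FPKM and CXCL8 at 0.195 FPKM, both above the values in TaxR. It would put CXCL5 at 0.00164 FPKM, below the TaxR value. For LIF the percentage comes to 0.423 FPKM, but LIF had 1.06 FPKM in C4-2B itself, against 1.33 in TaxR. With that share removed from TaxR the log2 ratio of LIF to C4-2B went from 0.17 to -0.10. CXCL1, CXCL3 and CCL20 would stand at 0.0965, 0.198 and 0.0945 FPKM, and were listed at 0. Taken of DTXR, that percentage would put CXCL5 at 0.691 FPKM, above the TaxR value, and CXCL8 at 0.0218 FPKM, below it. The part of these transcripts in the TaxR values was not tested.

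Over both lineages together no gene passed the limma test for docetaxel-resistant or cabazitaxel-resistant against parental lines, or for cabazitaxel-resistant against docetaxel-resistant lines. At an unadjusted p under 0.05 there were 772, 835 and 416 genes. The 7 chemokine and cytokine genes that reached 1 FPKM had adjusted p-values of at least 0.864 in these limma contrasts. All but LIF stayed under 1 FPKM throughout the C4-2B lineage and could hardly move there. For these genes the contrasts therefore cannot decide whether stage had an effect.

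The chemokine cluster on chromosome 4 was followed gene by gene with its neighbours (GRCh38, GENCODE release 29). CXCL8 (73740506 to 73743716), CXCL6 (73836497 to 73849064) and CXCL1 (73869393 to 73871242) lie on the plus strand. CXCL5 (73995642 to 73998779), CXCL3 (74036589 to 74038807) and CXCL2 (74097035 to 74099293) follow on the minus strand. CXCL5 was higher in both resistant DU145 lines while its measured neighbours on either side, CXCL1 and CXCL3, had negative ratios in both. PF4 and PPBP, the platelet chemokines between CXCL1 and CXCL5, and PF4V1 were listed at 0 in all 6 libraries. Beyond CXCL2, MTHFD2L did not pass the rule (-0.71 in CTXR and -0.15 in DTXR), but the EGF receptor ligands EREG and AREG, farther on, did. EREG, epiregulin, had 75 FPKM in CTXR and 37.4 in DTXR against 8.32 in DU145, and AREG, amphiregulin, had 96.5 and 31.4 against 10.9. EPGN, epigen, was higher in CTXR alone, with 8.05 FPKM, and was listed at 0 in DTXR and had 0.587 in DU145. PARM1 was also higher in CTXR (6.30 FPKM, against 1.92 in DTXR and 1.41 in DU145), as was RASSF6 at the other end (1.48 FPKM, against 0.786 in DTXR and 0.161 in DU145). In CTXR genes called higher and lower lay interspersed along the stretch, while in DTXR the 3 lower genes (CXCL8, CXCL6 and CXCL1) all came before the 3 higher ones. Of the 14 of 19 listed genes that reached 1 FPKM, which include the 5 CXC chemokines, 6 were higher and 2 lower in CTXR, and 3 higher and 3 lower in DTXR. Across all measured genes 7.45% were higher and 5.47% lower in CTXR, and 5.37% higher and 5.10% lower in DTXR. RASSF6 and EPGN reached 1 FPKM in CTXR alone, and CXCL5 in CTXR and DTXR alone, so the filter set the direction of their higher calls.

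**Figure D3:**
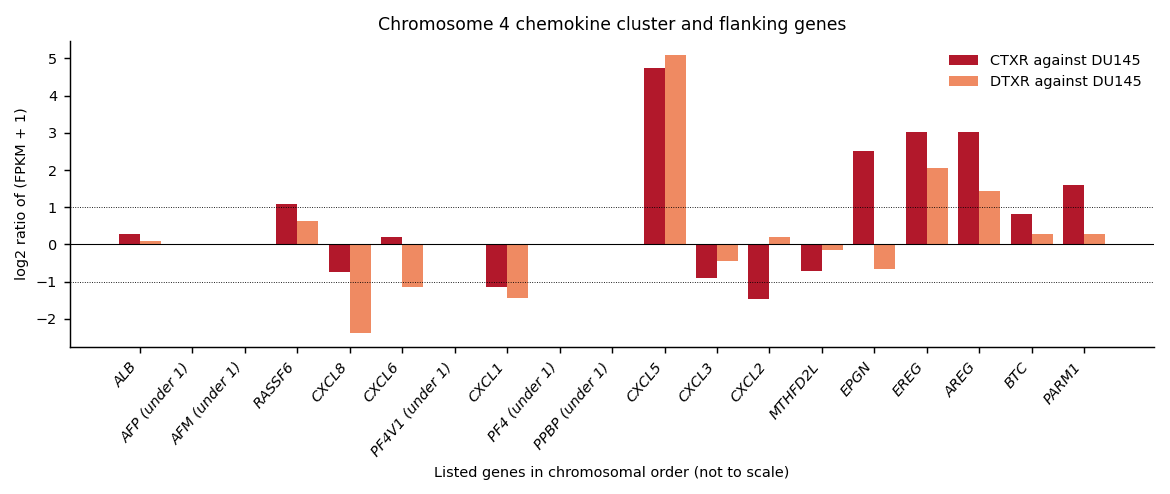
Log2 ratio of (FPKM + 1) to DU145 for 19 listed genes of the chromosome 4 cluster and its flanks, in chromosomal order but not to scale (bars, CTXR and DTXR, 1 library each). Dotted lines mark a log2 ratio of 1 in size, and genes marked under 1 reached 1 FPKM in no library. CXCL5 stands at 4.74 and 5.10 between neighbours at or below 0, and EREG and AREG are past the rule in both lines.

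IL1A (chromosome 2, 112773915 to 112784590) and IL1B (112829751 to 112836903), both on the minus strand, lie in a cluster that was nearly silent throughout. Of 16 listed genes of the cluster and its flanks 7 reached 1 FPKM and none passed the rule in any of the 6 comparisons of the lines. Of all measured genes the rule called between 3.59% (CabR against TaxR) and 12.9% (CTXR against DU145) in these comparisons. The coding genes on either side were read in all lines, CKAP2L at 7.14 to 12.7 FPKM and PSD4 at 1.14 to 20.0 FPKM. The antagonist IL1RN had 1.87 FPKM in CabR, 4.70 in TaxR and 2.12 in C4-2B, while in the DU145 lineage it was listed at 0 in CTXR and DU145 and had 0.0377 in DTXR. CCL20 lies apart on chromosome 2 (227805739 to 227817564, plus strand), IL6 on chromosome 7 (22725884 to 22732002, plus strand) and LIF on chromosome 22 (30240447 to 30246851, minus strand).

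Receptors for these ligands were unevenly present. CXCR1, CXCR2 and CCR6, the receptors of the CXC chemokines and of CCL20, reached at most 0.0602 FPKM in any library, CXCR2 in DTXR. IL1R1 had 1.54 FPKM in CTXR, 3.55 in DTXR and 1.01 in DU145, with 10.4 in CabR, 10.2 in TaxR and 7.54 in C4-2B, and was higher in DTXR (log2 ratio 1.18). IL6ST, the chain shared by IL6 and LIF, had 31.3 FPKM in CTXR and 34.9 in DTXR against 69.4 in DU145, and was lower in CTXR (-1.12). LIFR had 9.75 FPKM in CTXR, 26.6 in DTXR and 11.5 in DU145, and was higher in DTXR alone (1.14). In the other lineage LIFR had 5.59 FPKM in CabR, 6.65 in TaxR and 14.2 in C4-2B, and was lower in CabR (-1.21). IL6R, the specific receptor of IL6, passed the rule nowhere and had 3.24, 4.18 and 4.01 FPKM in CTXR, DTXR and DU145, against 20.1, 20.1 and 30.3 in CabR, TaxR and C4-2B. CXCR4, the CXCL12 receptor, was lower in both resistant DU145 lines (0.246 FPKM in CTXR and 0.530 in DTXR, against 3.02 in DU145), and IL1RAP, the IL1 receptor accessory chain, was lower in CTXR (6.93 FPKM, against 15.6 in DTXR and 16.4 in DU145). Of 10 measured receptors none was higher and 3 were lower in CTXR (median -0.23), and 2 were higher and 1 lower in DTXR (-0.04). The rule called 7.45% of all measured genes higher and 5.47% lower in CTXR, and 5.37% higher and 5.10% lower in DTXR.

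Among relatives of the interleukins, IL18, an IL1 family cytokine, had 116 FPKM in CTXR, 72.2 in DTXR and 42.2 in DU145, and was higher in CTXR (1.43). GSDMD, the pore-forming gasdermin through which IL1 cytokines leave cells, had 86.9 FPKM in CTXR and 42.7 in DTXR against 6.13 in DU145. CASP4, an inflammatory caspase, had 8.13 FPKM in CTXR and 17.7 in DTXR against 0.515 in DU145. NLRP1, an inflammasome sensor, had 5.73 FPKM in CTXR, 0.944 in DTXR and 3.35 in DU145 and was lower in DTXR. Of 5 measured genes of this list 3 were higher and none lower in CTXR (median 1.43), and 2 were higher and 1 lower in DTXR (0.76). The shares over all measured genes were 7.45% higher and 5.47% lower in CTXR, and 5.37% higher and 5.10% lower in DTXR. IL11, which like LIF signals through IL6ST, was lower in both resistant DU145 lines and higher in CabR. It had 1.62 FPKM in CTXR and 1.98 in DTXR against 14.3 in DU145 (-2.55 and -2.37), and 2.65 in CabR and 2.01 in TaxR against 0.545 in C4-2B (1.24 and 0.96). Of 3 measured IL6 family relatives it alone passed the rule in the 6 comparisons. Among 6 measured other chemokines CCL28 was higher and CXCL6 lower in DTXR (CCL28 16.7 FPKM, against 2.78 in DU145), CCL5 passed the rule in CTXR, at 1.02 FPKM and listed at 0 in DU145, CXCL16 was called nowhere (14.01 FPKM in CTXR, 18.3 in DTXR, 13.2 in DU145, 25.5 in CabR, 21.7 in TaxR and 28.5 in C4-2B), and CXCL12 was higher in CabR and TaxR (2.00 and 2.50 FPKM, against 0.434 in C4-2B).

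In the NF-kB machinery the calls were near the share over all measured genes in DTXR. Of 25 measured subunits, kinases and inhibitors none was higher and 1 lower in CTXR (NFKBID; median -0.09), and 3 were higher and none lower in DTXR (TNFAIP3, IRAK1 and IRAK4; 0.23), where 10.5% of all measured genes were called. In CabR and TaxR 1 was lower, the IkB family member BCL3, with 5.57 and 9.21 FPKM against 19.8 in C4-2B. IRAK1, a kinase of the IL1 receptor pathway, had 32.4 FPKM in CTXR, 91.0 in DTXR and 44.0 in DU145. Of 10 other measured genes known to respond to NF-kB and IL1, 5 were higher and none lower in CTXR (median 0.62), and 3 were higher and none lower in DTXR (0.33). Over all measured genes 7.45% were higher and 5.47% lower in CTXR, and 5.37% higher and 5.10% lower in DTXR. ICAM1, an adhesion molecule, had 13.0 FPKM in CTXR and 31.5 in DTXR against 1.48 in DU145. The apoptosis inhibitor BIRC3 had 29 FPKM in CTXR, 11.6 in DTXR and 6.22 in DU145 and was higher in CTXR. The urokinase gene PLAU had 72.9 FPKM in CTXR and 48.4 in DTXR against 15.9 in DU145. LCN2, lipocalin 2, was the gene of this list past the rule in the C4-2B lineage, with 4.66 FPKM in CabR and 25.1 in TaxR against 0.337 in C4-2B.

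**Figure D4:**
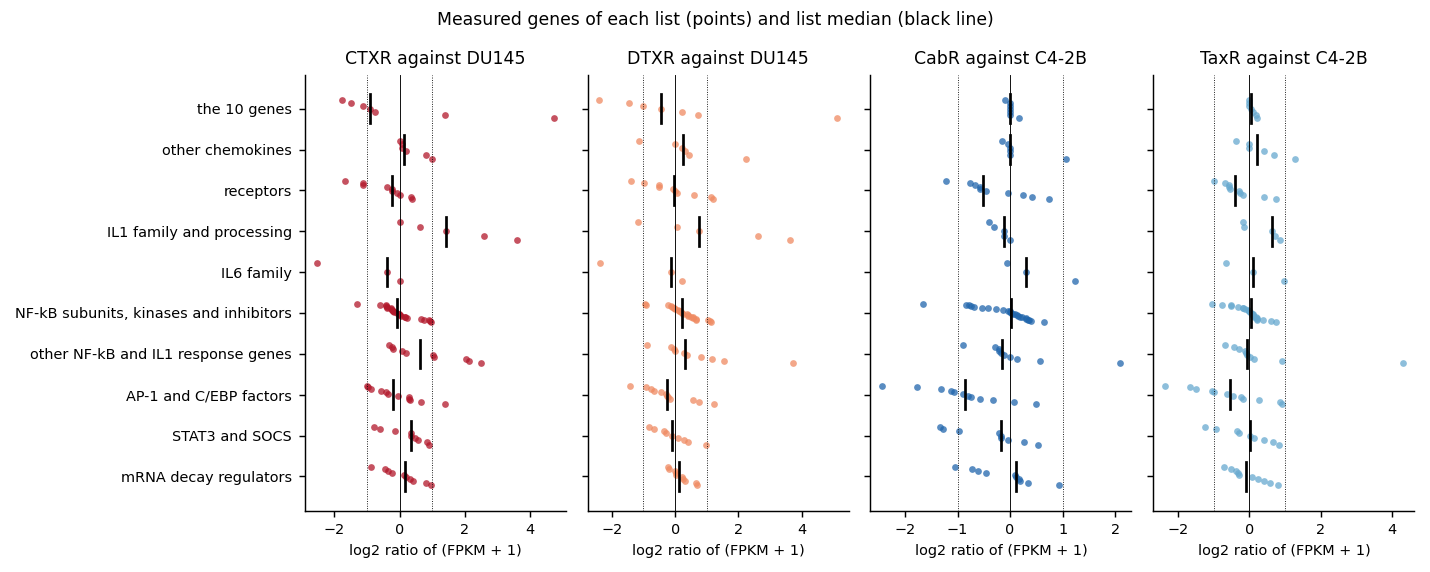
Log2 ratio of (FPKM + 1) to the parental line for the measured genes of 10 lists (points, 1 library per line, panels with their own axes) with the list median (black line). Dotted lines mark a log2 ratio of 1 in size. The 10 genes spread from -1.75 to 4.74 in CTXR, while the NF-kB machinery has medians of -0.09 in CTXR and 0.23 in DTXR.

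The AP-1 and C/EBP factors, which bind many chemokine promoters, were lower mainly in the resistant lines of the C4-2B lineage. Their part in the chemokine values was not tested. Of 12 measured, 5 were lower in CabR and 4 in TaxR (medians -0.86 and -0.54) and none was higher. Among all measured genes 6.20% were lower and 2.67% higher in CabR, and 5.64% lower and 2.52% higher in TaxR. FOS had 0.589 FPKM in CabR and 0.678 in TaxR against 7.56 in C4-2B, ATF3 had 6.48 in CabR and 7.07 in TaxR against 24.5 in C4-2B, and JUND had 108 in CabR and 131 in TaxR against 269.7 in C4-2B. In the DU145 lineage 1 was higher and none lower in CTXR (FOS), and 1 was higher and 1 lower in DTXR (FOSL2 and JUND). Their medians were -0.19 and -0.27. Of all measured genes the rule called 12.9% in CTXR and 10.5% in DTXR against DU145. JUND, which had 204 FPKM in CTXR, 48.0 in DTXR and 129 in DU145, was lowest in DTXR. FOSL1, with 47.5 FPKM in CTXR, 162 in DTXR and 95.8 in DU145, was highest there. Of 9 measured STAT3 and SOCS genes none passed the rule in CTXR or DTXR against DU145, against the same 12.9% and 10.5%. PIM1 was lower in both resistant C4-2B lines (4.70 FPKM in CabR and 5.05 in TaxR, against 13.4 in C4-2B). SOCS2 was lower in CabR (4.07 FPKM, against 18.5 in TaxR and 11.3 in C4-2B). In CTXR against DTXR SOCS1 and CISH were higher and JAK1 lower (CISH 1.60 FPKM in CTXR against 0.135 in DTXR, JAK1 12.2 in CTXR against 38.6 in DTXR). Of 10 regulators of mRNA decay none passed the rule in either resistant DU145 line, again against 12.9% and 10.5% of all measured genes. ZFP36, tristetraprolin, was lower in CabR (9.56 FPKM, against 20.8 in C4-2B).

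Among the coding genes most like the mean log2(FPKM + 1) of the 7 measured chemokine and cytokine genes over the 6 libraries were MYPN, PRSS12, CERK and MAP3K7, with Pearson correlations of 0.9993 to 0.9996 among 13435 ranked. All 4 were higher in each DU145-lineage library than in each C4-2B-lineage library. MYPN, for example, had 34.3 FPKM in CTXR, 40.7 in DTXR and 31.9 in DU145 and at most 0.253 in the other lineage. With 6 libraries in 2 lineages the 6 points fall into these lineages, and the measure carries no test.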

How the data were processed

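The authors deposited FPKM for 60658 Ensembl gene identifiers in 1 table per library, per the file headers. Stranded mRNA libraries were made from total RNA, per the labels' protocols. The submitters' processing notes name HISAT, StringTie, Cuffnorm and GRCh38. Annotation, versions and the use of strand in counting are not stated there, and FPKM are model estimates, so reads of close paralogs were divided by software. Of the identifiers 56550 matched a symbol table and 57047 GENCODE release 29.

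FPKM were used on the log2(FPKM + 1) scale for genes at 1 FPKM or more in at least 1 library. Pairs of lines were compared by size. limma 3.58.1 in R 4.3.3 used all libraries, with terms for stage plus lineage or for lineage, resistance and their interaction, with an intensity trend, two-sided tests and Benjamini-Hochberg adjustment, and was tested on simulated data. Whether libraries came from separate cultures is not stated. Fragment numbers rest on single-transcript genes, an assumed fragment length of 200 bases and the longest coding transcript. The 10 genes, the lists and the tests were chosen with earlier results of these data known. All 10 genes are named, and of each list up to 4 genes past the size rule by the largest ratio, with 7 receptors. CXCL16, MTHFD2L, PSD4, CKAP2L, IL1RN, TNFAIP3, SOCS1, FOSL2, RASSF6 and the markers were named outside or beside that rule. Python 3.11.15 with pandas 2.3.3, numpy 2.4.6, Biopython 1.88 and matplotlib 3.10.9 was used. Alternatives were other pseudocounts, filters, size rules and rescalings, removal of the DU145 share from TaxR, and limma without trend, lineage term or each library. Of the 5 genes most like the 10, 1 is not reported here.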

Additional observations from a re-analysis of the deposited data

Results flagged for a closer look

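No member of the 10 genes moved in opposite directions in both lineages. For most this was fixed in advance. CXCL1, CXCL3, CCL20, IL6, IL1A and IL1B were listed at 0 throughout the C4-2B lineage, and CXCL2 and CXCL8 in CabR and C4-2B. Of the related genes named, 5 moved in opposite directions in the lineages. They did so in every resistant line, by at least 0.1 on the log2 scale, with 1 line or more past the size rule. These 5 had been named because they passed that rule, and the share of all measured genes that moved in this way was not computed. In the C4-2B lineage GSDMD (0.287 to 0.702 FPKM) and BIRC3 (0.418 to 0.906 FPKM) stayed under 1 FPKM in all lines. The mean log2 ratio to the parent in the DU145 lineage minus that in the C4-2B lineage was 3.89 for ICAM1, 3.41 for GSDMD, 1.75 for BIRC3 and 1.47 for ZFP36, which had higher values in the resistant DU145 lines and lower values in the resistant C4-2B lines. It was -3.56 for IL11, which went the other way. The limma interaction did not pass for any of these (adjusted p = 0.343 for IL11, 0.402 for ICAM1 and GSDMD, 0.555 for ZFP36 and 0.615 for BIRC3, in 4 of 4 resistant lines each). ZFP36 stood at 0.98 in CTXR and 0.22 in DTXR, and -1.04 in CabR and -0.71 in TaxR.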

How the results depend on the processing

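Of 350 log2 ratios of the genes under alternative settings 328 stayed on the same side of the size rule, 9 no longer passed it, 13 newly passed it and none that was called changed sign. A size rule of 2 left 1 gene in CTXR against DU145 (CXCL5), 2 in DTXR (CXCL5 and CXCL8) and 0 in CTXR against DTXR. A pseudocount of 0.01 called 1 gene in CabR against C4-2B (CXCL5), 3 in TaxR against C4-2B and 3 in CabR against TaxR (CXCL2, CXCL5 and CXCL8), and 0.1 called 1 in the last (CXCL5), all on values of 0.280 FPKM or less. Removal of the DU145 share from TaxR called none. Rescaling to the same total put the median of all genes at -0.12 in TaxR against C4-2B. Leaving out mitochondrial genes and rescaling the rest to the same total raised all values, so that 18704 genes passed the filter. The calls in CTXR against DU145 then were 1417 higher and 1598 lower, against 1299 and 953 as deposited.

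In limma, 6801 genes differed between lineages, and 2997 to 4417 when each library was left out, where 1 residual degree of freedom remains. The number of the 7 genes that passed was then 4 to 5. It was 4 without CTXR, CabR or DU145 and 3 without a filter on low values (CXCL2, CXCL3 and LIF). Docetaxel-resistant against parental lines gave 0 to 1 genes when libraries were left out. Cabazitaxel-resistant against parental lines gave 0 to 1, and 1 with a pseudocount of 0.1. The step between them gave 0 to 1, and 2 with that pseudocount. Without a filter on low values the interaction gave 582 genes, resistant against parental lines 384 within the DU145 lineage (0 with the filter), CXCL5 among them, and 487 within the C4-2B lineage, and the cause was not tested. Within the DU145 lineage leaving out DTXR or CTXR sets 1 resistant library against 1 parental library, so no count is given. Leaving out CabR or TaxR gave 0 genes there. The interaction could not be fitted without C4-2B or DU145. Without the lineage term, which pairs the lines, no gene passed in any of the 3 stage contrasts. That setting was added after seeing the data for the last of them. No other paired analysis was possible because each line has 1 library. Counting error is large for the lowest values, such as about 3 fragments for CXCL5 in DU145, the base of its ratios, and 1 each for CXCL2 and CXCL8 in TaxR.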
